A study of Mus musculus with 24 samples.

Results

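Expression of 10 genes of fibroblast growth factor (FGF) signalling was followed across 24 bead arrays of the unsegmented caudal end of mouse embryos. They are the ligands Fgf3, Fgf4, Fgf8, Fgf17 and Fgf18 and the ERK feedback genes Spry2, Spry4, Dusp4, Dusp6 and Etv4. They were chosen by gene symbol, with every probe that carries the symbol, which gave 10 of 16593 named genes and 15 of the 25697 probes in the table. Of these, 13 probes for 8 of the 10 genes gave a signal above background on at least 4 arrays. Those 8 genes were tested among 11008 genes and unnamed probes.

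FGF ligands bind receptor tyrosine kinases and switch on the RAS, RAF, MEK and ERK kinase cascade. ERK activity turns on genes that feed back on the cascade, among them Sprouty proteins, which act on it upstream, and dual specificity phosphatases, which remove phosphate from ERK or its relatives. In the primitive streak and tail bud, Fgf4 and Fgf8 keep the presomitic mesoderm immature and take part in the movement of mesoderm cells out of the streak.

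The 6 groups were Srf knockout embryos and controls of 3 embryonic stages (E8.5, then E8.75, then E9.0), with 4 arrays in each and a strain label of C57Bl/6. The knockouts carry the label Srf(-/-), and the series describes them as SRF(flex/flex); T:cre. The controls are littermates, called wild type in the titles but Srf(+/-) in the genotype label. Both came from parents that were SRF(flex1/+) and carried T:cre on both chromosomes, so the controls carry Cre as well. The T gene drives Cre in the primitive streak and the mesoderm it forms, so cells in the dissected piece that never expressed T can keep Srf. Srf encodes serum response factor, which binds the CArG box in promoters of actin cytoskeleton and immediate early genes. Nothing in the labels tells whether the 4 arrays of a group hold separate embryos, pools or litters. The p-values here therefore rest on the spread among arrays, which may be technical.

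Normalized log2 intensity of the brightest Srf probe lay between 7.92 and 8.40 in knockouts against 9.11 and 9.36 in controls at E8.5. At E9.0 it lay between 8.18 and 8.67 in knockouts against 9.13 and 9.39 in controls. At E8.75 it lay between 7.64 and 8.51 in knockouts against 8.10 and 9.89 in controls, and the library labelled control E8.75 replicate 4, at 8.10, was inside the knockout range. Values at E8.75 are therefore also given without that array for each gene detected at that stage. The Srf log2 fold change was -1.09 at E8.5, where it missed the threshold (adjusted p = 0.172) although the arrays did not overlap. It was -1.005 at E8.75 (adjusted p = 0.0477) and -0.81 at E9.0 (adjusted p = 0.021). The labels do not place the Srf probe relative to the deletion. Arrays of E8.75 were brighter before normalization, with a median intensity of 145 to 173 against 36.8 to 45.9 at the other stages. The median spread within a group was also wider, with an SD of 0.256 on the log2 scale against 0.184 at E8.5 and 0.164 at E9.0. Changes with stage are given here between E8.5 and E9.0. Stage and any run of arrays that went with it cannot be told apart. Of 10 markers of the caudal end, 8 were measured and detected, and T and Msgn1 have no named probe in the table.

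RefSeq promoter windows (GRCm38.p6) were at hand for 5 of the 10 genes, and 3 are shown, all of genes on the plus strand. They are the 2 with the most copies of the GGAA core that ETS factors such as Etv4 bind and the 1 with none. Each runs over the 250 bases before the start of transcription, and capitals mark GGAA, or TTCC where the core is on the minus strand. The Dusp6 window (chr10:99262981-99263230) holds 6 matches, the Fgf3 window (chr7:144838362-144838611) holds 5 and the Fgf4 window (chr7:144861136-144861385) holds 0. The windows of Spry2 and Fgf18, not shown, hold 3 and 1.
Dusp6: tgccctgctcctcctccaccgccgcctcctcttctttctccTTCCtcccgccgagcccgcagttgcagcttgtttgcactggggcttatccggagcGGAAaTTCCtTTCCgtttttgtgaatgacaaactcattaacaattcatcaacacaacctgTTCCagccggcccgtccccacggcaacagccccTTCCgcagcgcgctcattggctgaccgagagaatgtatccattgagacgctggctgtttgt
Fgf3: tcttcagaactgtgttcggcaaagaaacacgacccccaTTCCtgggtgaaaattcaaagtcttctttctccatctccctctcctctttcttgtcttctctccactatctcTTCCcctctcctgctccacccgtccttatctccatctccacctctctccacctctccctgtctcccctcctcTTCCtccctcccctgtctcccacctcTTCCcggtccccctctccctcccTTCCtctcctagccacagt
Fgf4: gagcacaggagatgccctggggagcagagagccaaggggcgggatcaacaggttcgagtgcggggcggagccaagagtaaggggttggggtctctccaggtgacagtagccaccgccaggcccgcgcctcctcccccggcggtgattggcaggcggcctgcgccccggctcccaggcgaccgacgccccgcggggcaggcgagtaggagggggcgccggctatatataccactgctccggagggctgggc
Over 32851 such windows of mouse genes, 93.4% hold at least 1 GGAA core on either strand, with a median of 3. The CArG box, searched on both strands, was in 1.47% of the windows and in 0 of the 5 windows of these genes. A match is a description of the letters in the window and not a bound site.

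Loss of Srf left most of these genes without a called difference. At a Benjamini-Hochberg adjusted p under 0.05 in limma, 0 of the 8 measured genes were called between knockout and control at E8.5, where 0.00908% of all features were called and the loss of Srf itself was not. At E8.75, 0 of 8 were called, against 0.527% of all features. At an unadjusted p under 0.05 in limma the counts were 0 at E8.5 and 1 at E8.75, which was Fgf17. At E9.0, 1 of 8 was called, Dusp4, which was higher in knockouts, against 13.2% of all features called in either direction and 7.31% called higher, so the share of these genes is close to the background. The median log2 fold change of the 8 genes was 0.02, -0.04 and 0.02 at the 3 stages in order, beside 0.00, 0.00 and 0.01 over all features. In a simulation of the E9.0 comparison, 37% of changes of 0.5 and 89% of changes of 1 on the log2 scale were recovered, so smaller differences could be missed with 4 arrays per group. Fewer genes were changed in the simulation than were called in the real comparison. The adjusted p depends on that number, so recovery in the real comparison may differ.

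**Figure D1:**
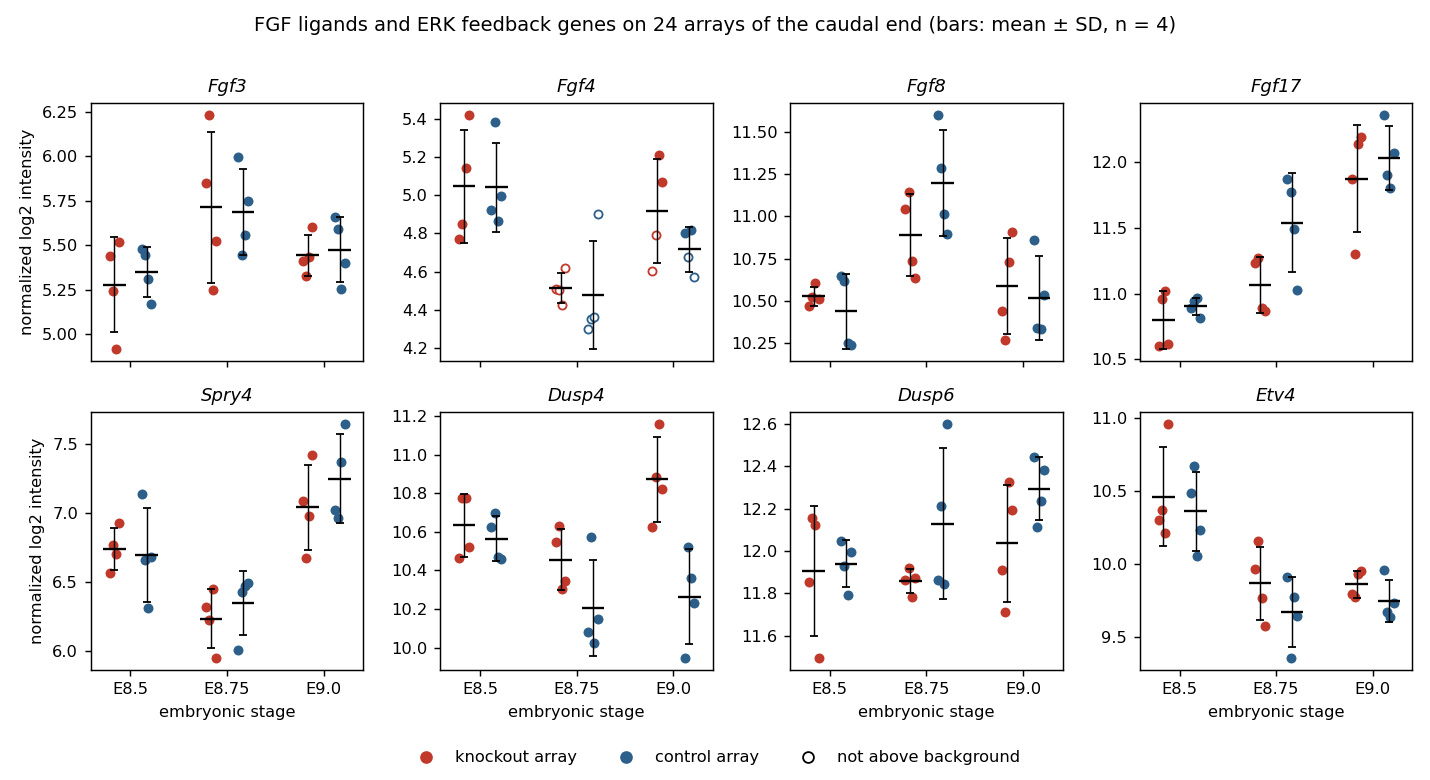
Normalized log2 intensity (vertical axis) of the used probe of each measured gene by embryonic stage (horizontal axis), with 1 point per array and bars for mean ± SD (n = 4), knockouts left of controls and open points not above background. Dusp4 in the E9.0 knockouts lies between 10.62 and 11.16, above all 4 controls at 9.95 to 10.52, and Fgf17 is higher at E9.0 than at E8.5 in both genotypes.

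Among the ligands, Fgf8, made in the streak and the caudal presomitic mesoderm, was bright on all 24 arrays. At E8.5 it read 10.47, 10.52, 10.61 and 10.51 in knockouts, against 10.65, 10.62, 10.25 and 10.24 in controls. At E9.0 it read 10.44, 10.27, 10.73 and 10.91 in knockouts, against 10.86, 10.34, 10.33 and 10.53 in controls. The groups overlapped at both stages, and the fitted log2 fold changes were 0.09 ± 0.17 and 0.07 ± 0.17 (SE, n = 4 each). At E8.75 it read 11.04, 11.14, 10.74 and 10.64 in knockouts, against 11.60, 11.29, 11.01 and 10.90 in controls. The knockout mean was lower, but the groups overlapped and the log2 fold change of -0.31 (95% interval -0.65 to 0.03) had an adjusted p of 0.463. Without control 4 it was -0.41 (adjusted p = 0.351). At E8.5 and E9.0 the intervals reached from 0.83-fold to 1.35-fold, and changes within that range could not be told from none.

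Fgf17, a close relative of Fgf8 with a similar domain in the tail bud, gave the largest negative estimate of the 8 genes at E8.75. It read 11.23, 11.27, 10.89 and 10.87 in knockouts, against 11.87, 11.77, 11.49 and 11.02 in controls. Controls 1 to 3 stood above every knockout, while control 4, the array with the low Srf signal, lay inside the knockout range. The log2 fold change was -0.47 ± 0.19 (SE, n = 4 each; 95% interval -0.86 to -0.09) with an adjusted p of 0.294, so it was not called. Without control 4 it was -0.65 with an adjusted p of 0.123, and in a fit of the E8.75 arrays alone the adjusted p was 0.739. At E8.5 and E9.0 the knockout minus control values of Fgf17 were -0.10 ± 0.19 and -0.16 ± 0.19 (SE), with overlapping arrays. The second Fgf17 probe gave -0.54 at E8.75 but was opposite in sign at E8.5 (0.11) and at E9.0 (0.03), with no call at any stage. Beside the E8.75 value, the mean of 6 markers of visceral yolk sac endoderm lay between 7.04 and 9.47 in knockouts against 5.34 and 6.71 in controls. The same arrays gave the E8.75 values of the other genes and enter each mean over the stages. The part of the yolk sac markers in the Fgf17 value, or in those values, was not tested.

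Fgf3 was dim but detected on all 24 arrays, and its knockout minus control values of -0.07, 0.03 and -0.03 at the 3 stages in order all had overlapping arrays and intervals within -0.43 and 0.38. The E8.75 value was 0.05 without control 4. Fgf4, which in the mouse acts with Fgf8 in the presomitic mesoderm, was near background. It was detected on all 8 arrays at E8.5, on 0 of 8 at E8.75 and on 2 knockout and 2 control arrays at E9.0. No difference is read at E8.75, where neither genotype was above background. At E9.0 it read 4.60, 4.79, 5.21 and 5.07 in knockouts, against 4.80, 4.67, 4.82 and 4.57 in controls. Only knockouts 3 and 4 stood above the controls at E9.0, and the log2 fold change of 0.20 ± 0.16 (SE) had an adjusted p of 0.457. Fgf18 had 1 probe, which was above background on 0 of 24 arrays, with values from 4.29 to 4.65 in all groups.

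Dusp4, a nuclear phosphatase of ERK and related kinases, was the 1 gene called between genotypes, at E9.0 and in the mean over the stages. At E9.0 its brightest probe read 10.62, 10.88, 11.16 and 10.82 in knockouts, against 9.95, 10.52, 10.36 and 10.23 in controls. Every knockout array stood above every control array. The log2 fold change was 0.61 ± 0.14 (SE, n = 4 each), or 1.52-fold (95% interval 1.24 to 1.87), with an adjusted p of 0.00553. The adjusted p was at most 0.0274 when any 1 array of the stage was left out. Groups that do not overlap in this direction were seen for 14% of all features at E9.0.

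At E8.75 Dusp4 read 10.55, 10.63, 10.31 and 10.34 in knockouts, against 10.08, 10.57, 10.03 and 10.15 in controls. Control 2 lay inside the knockout range, and the difference of 0.25 (95% interval -0.04 to 0.54) had an adjusted p of 0.496. Without control 4 it was 0.23. At E8.5 it read 10.46, 10.77, 10.77 and 10.52 in knockouts, against 10.63, 10.70, 10.47 and 10.46 in controls, with a difference of 0.07 (95% interval -0.22 to 0.36). Averaged over the 3 stages, Dusp4 was higher in knockouts by 0.31 ± 0.08 (SE, adjusted p = 0.0213 in limma), the 1 call among the 8 genes. That comparison called 8.14% of all features in either direction and 4.66% of all features higher. The E9.0 effect minus the E8.5 effect was 0.54 ± 0.20 (SE; unadjusted p = 0.0132 and adjusted p = 0.239 in limma), so a difference between stages was not called. In limma 0 of the 8 genes were called in that comparison, where 0.845% of features were, or by the moderated F test of genotype with stage, where 0.945% were. For Dusp4, the 1 gene with an unadjusted p under 0.05 in either, that F test gave an unadjusted p of 0.0394 and an adjusted p of 0.341.

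Dusp4 has 3 probes, and they did not give 1 size. At E9.0 the second probe read 8.40, 8.62, 8.86 and 8.80 in knockouts, against 7.58, 8.01, 7.93 and 7.92 in controls. These groups also did not overlap, and the log2 fold change was 0.81 (adjusted p = 0.000622 with each probe fitted on its own). The dimmest probe read 5.96, 6.46, 6.93 and 6.71 in knockouts, against 6.28, 6.51, 6.19 and 6.26 in controls. Those groups overlapped, and its log2 fold change of 0.21 had an adjusted p of 0.563. All 3 probes gave a positive estimate at each stage. At E8.75, however, the dimmest probe was above background on 1 of 4 knockout and 0 of 4 control arrays, so its estimate there is not read.

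**Figure D2:**
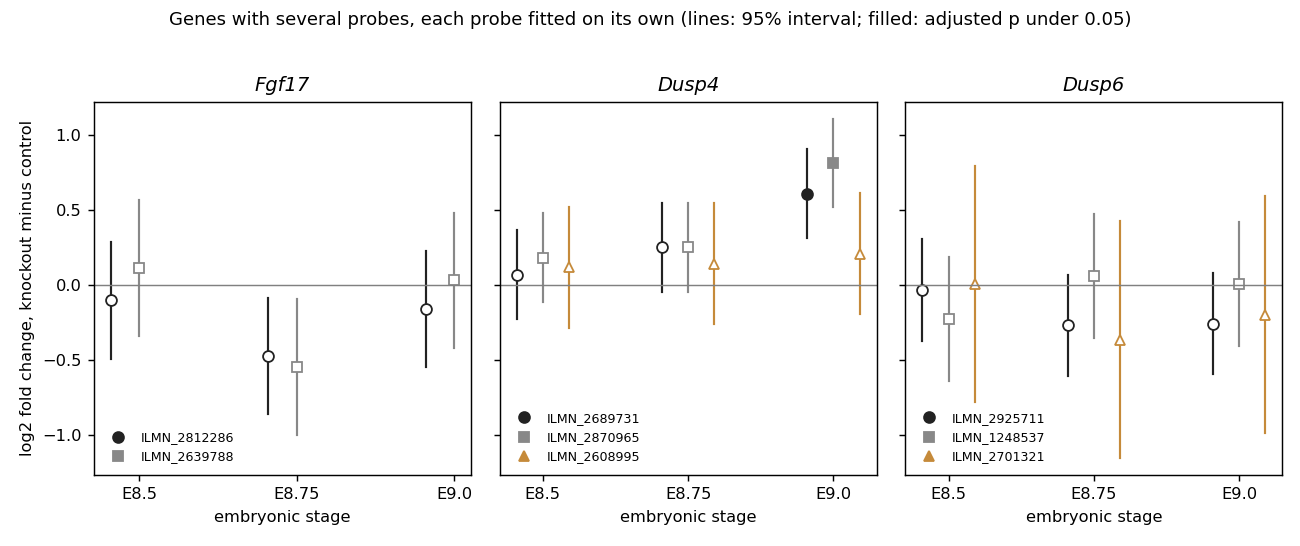
Log2 fold change of knockout minus control (vertical axis) by embryonic stage (horizontal axis) for each probe of Fgf17, Dusp4 and Dusp6, with lines for the 95% interval and filled points for an adjusted p under 0.05. Of the probes drawn, the 2 brighter Dusp4 probes at E9.0, at 0.61 and 0.81, passed the threshold.

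Markers of other cell types also differed at E9.0. The mean of 6 primitive erythroid markers lay between 5.80 and 9.10 in knockouts against 9.99 and 11.38 in controls, and 5 of the 6 were called lower. The mean of 4 gut endoderm markers was 5.49 ± 0.28 in knockouts and 6.18 ± 0.10 in controls (SD, n = 4), with 2 of the 4 called lower. Over all features, 5.9% were called lower at E9.0. The mean of 5 endothelial markers was 6.42 ± 0.32 in knockouts and 7.03 ± 0.06 in controls (SD, n = 4). Of these Emcn was called lower (-2.28), while Pecam1 (-0.41), Cdh5 (-0.25), Tek (-0.42) and Kdr (0.29) were not called. The mean of 8 caudal end markers was 9.35 ± 0.24 in knockouts and 9.18 ± 0.15 in controls (SD, n = 4). Its arrays overlapped, at 9.03 to 9.61 in knockouts against 9.03 to 9.38 in controls. Of these Cdx4, a caudal homeobox gene, was called higher by 0.54 (adjusted p = 0.036). Tbx6 (0.45), Cyp26a1 (0.40), Cdx2 (0.20), Dll1 (0.14), Wnt3a (0.02), Nkx1-2 (-0.14) and Hes7 (-0.21) were not called. The part of these markers in the Dusp4 difference was not tested. In dissected tissue, fewer cells of a type and less RNA per cell cannot be told apart.

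Dusp6, the cytoplasmic phosphatase of ERK, was detected on all 24 arrays and had no called difference. At E9.0 it read 11.91, 11.71, 12.33 and 12.19 in knockouts, against 12.44, 12.11, 12.24 and 12.38 in controls. Knockouts 1 and 2 stood below the controls, knockouts 3 and 4 among them. The log2 fold change was -0.26 ± 0.16 (SE, n = 4 each; 95% interval -0.59 to 0.08) with an adjusted p of 0.331. At E8.75 it was -0.27 (adjusted p = 0.526), and -0.11 without control 4, whose reading of 12.60 was the highest of that stage. Its other 2 probes gave 0.00 and -0.20 at E9.0 and, with opposite signs, 0.06 and -0.36 at E8.75. At E8.5 the used probe gave -0.03 and the other 2 gave -0.23 and 0.01. None of these values was called.

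Spry4, a Sprouty inhibitor, had knockout minus control values of 0.04, -0.11 and -0.21 at the 3 stages in order, with overlapping arrays at each stage and adjusted p from 0.513 upwards. Without control 4 the E8.75 value was -0.06. Spry2, its relative, was above background on 0 of 24 arrays, with values from 4.24 to 4.64. Etv4, an ETS transcription factor induced by ERK signalling, had positive estimates of 0.10, 0.20 and 0.11 at the 3 stages, the E8.75 value being 0.19 without control 4. At E9.0 it read 9.79, 9.77, 9.93 and 9.96 in knockouts, against 9.96, 9.67, 9.64 and 9.73 in controls. Controls 2 to 4 stood below all knockouts and control 1 level with the highest of them, and the interval of the difference, from -0.22 to 0.45, covered 0.

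**Figure D3:**
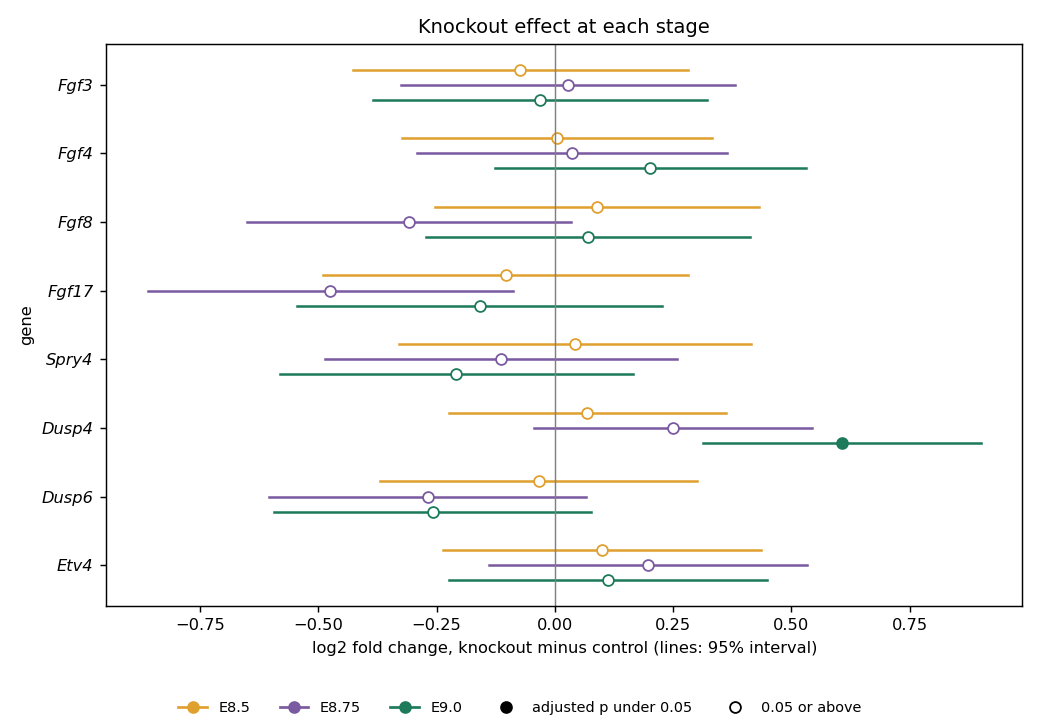
Log2 fold change of knockout minus control (horizontal axis) for the 8 measured genes (vertical axis) at each stage, with lines for the 95% interval and filled points for an adjusted p under 0.05. The Dusp4 point at E9.0, at 0.61, is filled, and the Fgf17 point at E8.75, at -0.47, is open.

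More of the 8 genes were called between stages than between genotypes. Between E8.5 and E9.0, 2 of 8 were called in knockouts and 3 of 8 in controls, beside 26.7% of all features in knockouts and 26.4% in controls, so the count itself is near the background. Arrays of the stages did not overlap for 2 of 8 genes in knockouts, against 29.5% of features, and for 4 of 8 in controls, against 34.7%. Fgf17 and Etv4 were in both counts.

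Fgf17 was higher at E9.0 in both genotypes. In knockouts it read 11.87, 11.30, 12.14 and 12.19 at E9.0, against 10.60, 10.96, 11.02 and 10.62 at E8.5. In controls it read 12.36, 11.91, 11.80 and 12.07 at E9.0, against 10.89, 10.94, 10.96 and 10.81 at E8.5. Each E9.0 array stood above each E8.5 array of its genotype. The log2 fold change was 1.08 ± 0.19 in knockouts (SE; 2.11-fold, 95% interval 1.61 to 2.76, adjusted p = 0.000169). It was 1.13 ± 0.19 in controls (SE; 2.19-fold, 95% interval 1.68 to 2.86, adjusted p = 0.000107). The second Fgf17 probe rose by 1.48 in knockouts and 1.57 in controls. Fgf8 over the same interval gave 0.06 in knockouts and 0.08 in controls, with intervals from -0.28 to 0.42, and was not called.

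Etv4 went the other way. In knockouts it read 9.79, 9.77, 9.93 and 9.96 at E9.0, against 10.30, 10.37, 10.21 and 10.96 at E8.5. In controls it read 9.96, 9.67, 9.64 and 9.73 at E9.0, against 10.49, 10.67, 10.06 and 10.23 at E8.5. All E9.0 arrays stood below all E8.5 arrays of their genotype. The log2 fold change was -0.60 ± 0.16 in knockouts (SE; adjusted p = 0.00838) and -0.61 ± 0.16 in controls (SE; adjusted p = 0.00722). Etv4 and Fgf17, a target and a ligand of the same pathway, thus changed in opposite directions.

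Spry4 rose in controls by 0.55 ± 0.18 (SE; adjusted p = 0.0259). It read 7.02, 6.96, 7.37 and 7.64 in controls at E9.0, against 7.14, 6.66, 6.31 and 6.68 at E8.5, where control 1 lay inside the E9.0 range. The call was lost, with adjusted p of 0.0571, 0.105 and 0.0566, when E8.5 control 2, 3 or 4 was left out, and with 0.0692 and 0.114 when E9.0 control 3 or 4 was. In knockouts the change was 0.30 ± 0.18 (SE; adjusted p = 0.238), and the difference between genotypes, -0.25 ± 0.26 (SE), was not called (adjusted p = 0.794).

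By the used probe of each, Dusp4 and Dusp6 were not called between stages. The E9.0 minus E8.5 value of Dusp4 was 0.24 (95% interval -0.05 to 0.53) in knockouts and -0.30 (95% interval -0.59 to -0.01) in controls. The knockout value shares the E9.0 knockouts, and the control value the E9.0 controls, with the genotype comparison above. Its probes disagreed in controls, with -0.42 (adjusted p = 0.0317) for the second and 0.62 (adjusted p = 0.0212) for the dimmest. In knockouts the second Dusp4 probe gave 0.21 (adjusted p = 0.303), while the dimmest passed the threshold at 0.71 (adjusted p = 0.00927 in limma). Dusp6 gave 0.13 in knockouts and 0.35 in controls, where the arrays of the stages did not overlap but the adjusted p was 0.114. The other 2 Dusp6 probes gave -0.21 and 0.98 in controls and 0.02 and 0.78 in knockouts, so its probes disagreed in controls as well, with no call. Fgf4 gave -0.13 in knockouts and -0.32 in controls, and Fgf3 gave 0.16 in knockouts and 0.12 in controls, all without a call. Beside these stage values, all 6 yolk sac endoderm markers were called lower at E9.0 in both genotypes, with medians of -4.55 in knockouts and -4.49 in controls. Of the 6 erythroid markers, 0 were called between stages in knockouts and all were called higher at E9.0 in controls. Their part in the stage values of the FGF genes was not tested.

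**Figure D4:**
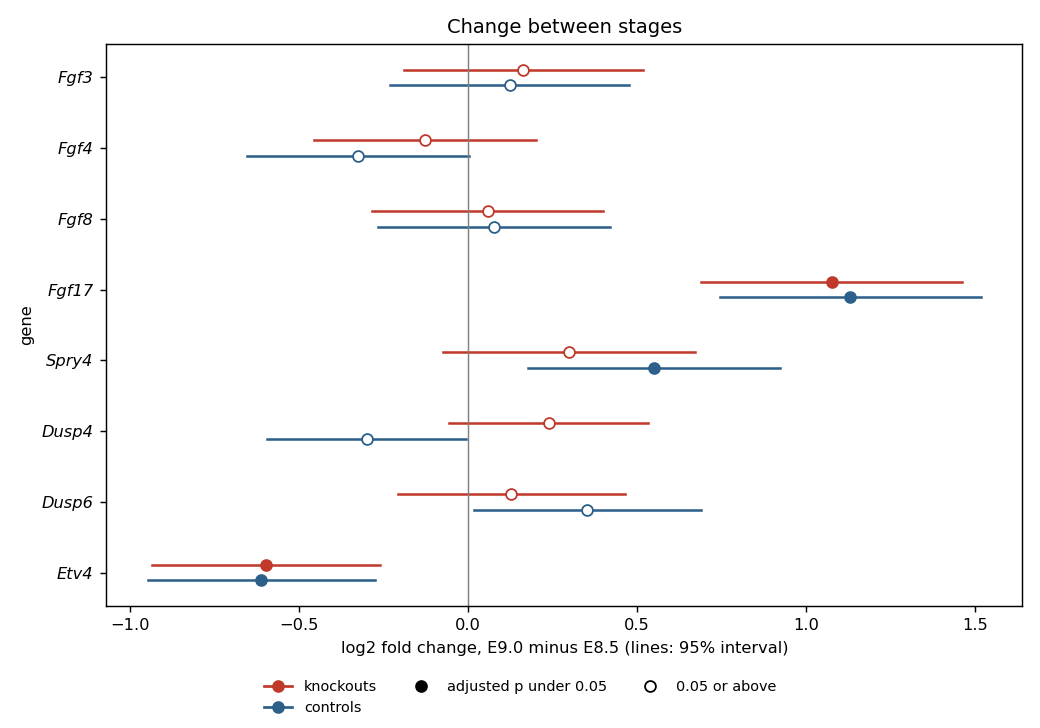
Log2 fold change of E9.0 minus E8.5 (horizontal axis) for the 8 measured genes (vertical axis) in knockouts and controls, with lines for the 95% interval and filled points for an adjusted p under 0.05. Fgf17 is filled at 1.08 and 1.13, Etv4 at -0.60 and -0.61, and Spry4 at 0.55 in controls, with an open point at 0.30 in knockouts.

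A wider list of the pathway held 59 other genes, of which 50 have a probe and 34 were measured. In limma 0 were called at E8.5 and at E8.75, and 0 and 3 had an unadjusted p under 0.05. At E9.0, 3 were higher and 2 lower in knockouts and 29 were not called, a share near the 13.2% of all features, and the median of the 34 was 0.06. Among other ligands 1 of 6 measured was called, among receptors and co-receptors 1 of 7, in the cascade 1 of 9 and among other feedback inhibitors and targets 2 of 12.

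Fgf10, a ligand best known from limb and lung buds, read 7.50, 8.77, 7.51 and 7.20 in knockouts at E9.0, against 5.40, 7.42, 6.92 and 6.74 in controls. The groups overlapped, with knockout 2 and control 1 far from the rest, and the log2 fold change was 1.12 ± 0.31 (SE; adjusted p = 0.0163). Araf, a RAF kinase of the cascade, read 10.31, 10.41, 10.35 and 10.43 in knockouts, against 9.91, 9.65, 9.82 and 9.83 in controls. Its groups did not overlap, and the log2 fold change was 0.58 ± 0.10 (SE; adjusted p = 0.000332). Etv1, of the same ETS subfamily as Etv4, averaged 6.18 ± 0.38 in knockouts and 5.49 ± 0.36 in controls (SD, n = 4), a log2 fold change of 0.69 with an adjusted p of 0.0163. Its groups overlapped, with the lowest knockout at 5.70 and the highest control at 5.77.

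Flrt3, a membrane protein that binds FGF receptors, averaged 10.01 ± 0.26 in knockouts and 10.55 ± 0.28 in controls (SD, n = 4), a log2 fold change of -0.54 with an adjusted p of 0.0111. Shisa2, which holds back maturation of FGF and Wnt receptors, averaged 7.47 ± 0.20 in knockouts and 7.88 ± 0.27 in controls (SD, n = 4), a log2 fold change of -0.41 with an adjusted p of 0.038. For both Flrt3 and Shisa2 the knockout and control arrays overlapped at E9.0. In the mean over the 3 stages, Araf (0.24), Flrt3 (-0.31) and Shisa2 (-0.29) were called, with adjusted p of 0.00933, 0.0185 and 0.0198. These 3 of 34 stand beside 8.14% of all features called in that comparison, so the count is near the background. At E9.0 the list's count was 2, Araf and Etv1, without control replicate 1 or without knockout replicate 2, and 3, Fgf10, Flrt3 and Araf, without control replicate 4. Araf was not called when its probes were averaged.

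**Figure D5:**
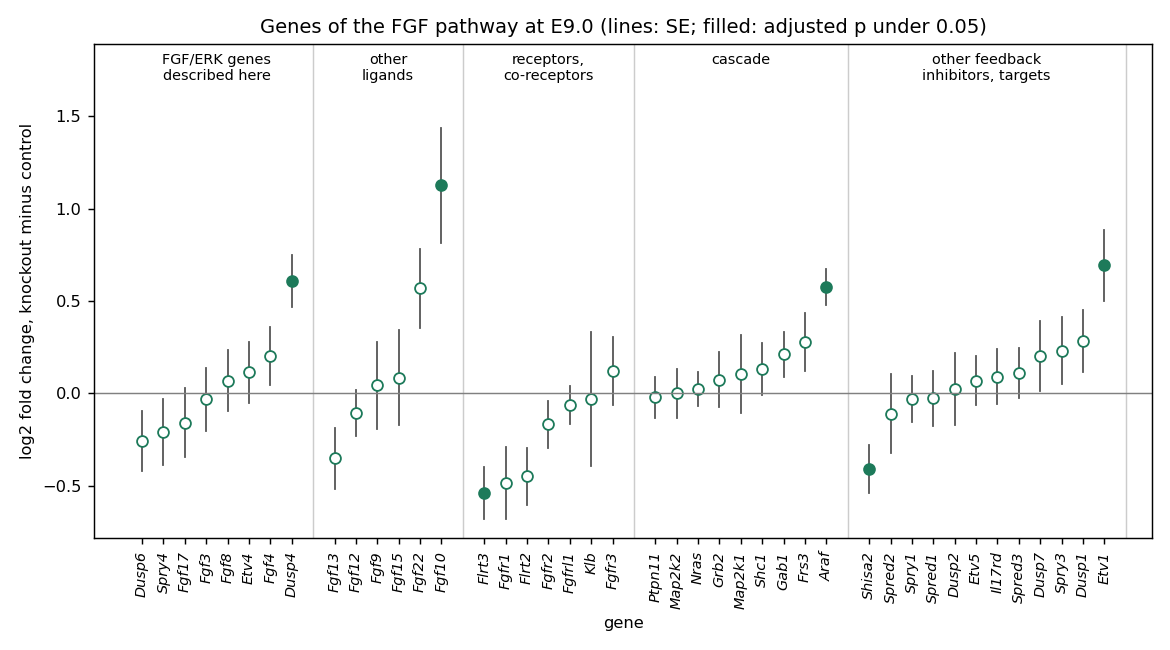
Log2 fold change of knockout minus control at E9.0 (vertical axis) for each measured gene of the pathway (horizontal axis), grouped by role, with lines for the SE and filled points for an adjusted p under 0.05. Filled points are Dusp4 at 0.61, Fgf10 at 1.12, Araf at 0.58 and Etv1 at 0.69 above 0, and Flrt3 at -0.54 and Shisa2 at -0.41 below it.

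For each measured gene, the features with the most similar pattern were ranked by Pearson correlation over the 24 arrays after each stage's mean was subtracted. Fgf17 was most like Acot7 (r = 0.88), an acyl-CoA thioesterase, then Rnf182 and Fbln2. Fgf8 had Fgf17 (r = 0.81) among its closest 3, and Fgf3 had Etv4 (r = 0.65). Dusp4 was most like Plekha2 (r = 0.87) and Dusp6 most like Sav1 (r = 0.90), a Hippo pathway scaffold. Etv4 was most like Rtl8c (r = 0.84), followed by Epha1 and by Pou5f1 (r = 0.76), a pluripotency factor also active in the early epiblast. Fgf4, whose probe was above background on only 12 of the 24 arrays, was most like Porcn (r = 0.82), the acyltransferase of Wnt proteins. Spry4 was most like Bicra (r = 0.70). These correlations describe the arrays, which share tissue composition, hybridization and normalization, and they were picked as the highest of 11007. Only stage means were subtracted, so differences between genotypes also enter the correlations.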

How the data were processed

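RNA was isolated with Trizol and columns and hybridized as biotin-labelled cRNA, per the labels' protocols. Per the file headers, the authors deposited an unnormalized intensity per probe and array and beside it a detection p-value. The deposited value table holds quantile normalized intensity, as read from its values, and served as an alternative. Per the submitters' processing notes, GenomeStudio was used.

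The neqc function (limma 3.58.1, R 4.3.3) corrected background with an offset of 16, quantile normalized and took log2. A probe entered if 4 or more arrays gave it a detection p below 0.05, which left 14927. The probe with the highest mean stood for a gene. The 6 group means were fitted on all 24 arrays (prior degrees of freedom 5.73), with Benjamini-Hochberg adjustment over 11008 features and moderated 95% intervals. Other probes of the FGF genes come from a fit with every probe as a feature. The arrays' number limits precision. No 2 arrays held identical values.

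The genes and lists were chosen with earlier results of these data known. Named were all 10 genes, each gene of the wider list called between genotypes, and the 3 features most like each gene. The rule for markers named list means and single genes that moved beside a result. In the list of 4 notochord markers 2 were called lower at E9.0, Noto (-0.65) and Foxa2 (-0.52), beside 5.9% of all features. Shh (-0.54) and Chrd (0.36) were not called. Foxa2 is also in the gut endoderm list, as 1 of its 2 markers called lower. Of 5 somite, 5 neural tube, 4 cardiomyocyte and 4 surface ectoderm or neural crest markers, 3, 2, 1 and 1 were measured, with 0 called between genotypes at E9.0. In simulated E9.0 data, with fewer genes changed than were called in the real comparison, 7.35% of the calls were false.

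Replicate numbers are shared by the groups. Of 12 pairs of same-numbered arrays within a stage, 2 deviated together with a correlation over 0.1 (range -0.26 to 0.40), so the numbers were not taken to pair the arrays.

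Alternatives were the deposited normalized values, an offset of 50, no filter, a stricter filter (detection p under 0.01 on at least 12 arrays), the mean over a gene's probes, every probe as a feature, a fit of the groups compared, a fit without the E8.75 arrays, array weights by stage, the replicate number as a block, and leaving out each array in turn.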

Additional observations from a re-analysis of the deposited data

Results flagged for a closer look

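Of 48 sets of 4 arrays (8 genes in 6 groups), 2 held an array far from the other 3, and chance alone flags about 1 in 20. Spry4 read 6.01 in E8.75 control replicate 1, below the other controls at 6.43 to 6.50. Fgf4 read 4.90 in E8.75 control replicate 4, above the other controls at 4.30 to 4.36, although its probe was not above background on any array of that stage.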

How the results depend on the processing

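The calls of Dusp4 at E9.0 and over the stages, and of Fgf17 and Etv4 between stages in both genotypes, held under every alternative run and with each array left out. With each array left out in turn, 2 to 3 genes were called between stages in controls and 2 to 5 of the wider list at E9.0, while the wider list at E8.75 had 0 to 1, the 1 being Spred2 without control replicate 4. The wider list at E9.0 had 8 of 34 called without the E8.75 arrays and with array weights by stage, adding Fgf22, Fgfr1 and Flrt2, while the share of all features called was 19.6% and 24.8% under these settings. With the mean over a gene's probes, Fgf17 at E8.5 turned to 0.0051 and Dusp4 rose between stages in knockouts (0.39, adjusted p = 0.0393). In a fit of only the groups compared, the probe used for Dusp6 passed the threshold between stages in controls (0.35, adjusted p = 0.0199). That fit called 36.4% of all features in the same comparison. With the replicate number as a block, 1 of the 8 genes was called at E9.0, 1 over the stages, 2 between stages in knockouts and 3 in controls, and 6 of the wider list at E9.0. That block changed no other call of the 8 genes.

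Uncalled differences near 0 changed sign when single arrays were left out. Knockout minus control at E8.5 ran from -0.15 to 0.048 for Fgf3, -0.12 to 0.12 for Fgf4, -0.085 to 0.19 for Spry4, -0.12 to 0.10 for Dusp6 and -0.066 to 0.20 for Etv4. At E8.75 it ran from -0.15 to 0.18 for Fgf3 and -0.022 to 0.18 for Fgf4. At E9.0 it ran from -0.11 to 0.030 for Fgf3, -0.037 to 0.18 for Fgf8 and -0.26 to 0.033 for Fgf17. The mean over stages of Fgf3 ran from -0.083 to 0.026. The E9.0 effect minus the E8.5 effect ran from -0.081 to 0.12 for Fgf3, -0.13 to 0.095 for Fgf8, -0.16 to 0.14 for Fgf17 and -0.089 to 0.18 for Etv4. Between stages, Fgf8 ran from -0.048 to 0.16 in knockouts and -0.036 to 0.15 in controls, and Dusp6 in knockouts from -0.0079 to 0.24. Fewer arrays enter each of these fits. Fgf4, Fgf18 and Spry2 lie near or below background, so changes in them may go unseen.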
